A study of Homo sapiens with 6 samples.

Results

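Mucins and the proteins secreted with them form the mucus of the airway surface. MUC5AC and MUC5B are the gel-forming mucins of goblet and submucosal gland cells, whereas MUC1, MUC4, MUC13 and MUC20 are anchored in the apical membrane. AGR2 is an endoplasmic reticulum protein needed for mucin folding, TFF1 and TFF3 are trefoil peptides released with mucins, and WFDC2 is a secreted whey acidic protein family member made by airway secretory cells. KLF5 is a zinc finger transcription factor of epithelia that recognises GC-rich DNA, and CEBPB is a basic leucine zipper factor active in airway epithelial and inflammatory gene control.

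These 10 genes lie at 7 loci, and their peaks were chosen by position alone, as rows of the deposited peak lists whose midpoint was within 50 kb of a gene span on hg19. The rule took 48 of the 74158 peaks of the series. Chromatin immunoprecipitation followed by sequencing (ChIP-seq) had been done on untreated cells of 2 human bronchial epithelial lines, in 3 groups of 2 samples each. The groups were KLF5 in Calu-3, a lung adenocarcinoma line, KLF5 in 16HBE14o-, an immortalised bronchial line, and CEBPB in Calu-3. All were grown in DMEM with serum. The Calu-3 KLF5 samples used a rabbit antibody to KLF5 for replicate 1 and the commercial antibody sc-398470 for replicate 2. Both 16HBE14o- samples used sc-398470, and the CEBPB samples used sc-7962.

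Each group had 1 deposited list made from both of its samples, so no value below has a spread between samples and no difference was tested. Sequencing depth is unknown, since no read counts came with the lists. A locus with no listed peak may still hold binding below the authors' threshold. The series measured no RNA or protein among the samples analysed here, so the activity of these genes in either line is not known from these data. Peaks are ranked by the authors' signal value as a percentile of their own list, with 100 the highest. Positions are on hg19. The lower and upper edges of a span are its smaller and larger coordinates, given by the selection rule to the nearest kb.

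Promoter sequences were looked up for the members, because a KLF5 or CEBPB peak lay close to the edge where the gene starts at MUC1 and WFDC2. RefSeq (GRCh38.p14) gave a promoter for 5 of the 10 genes, namely MUC1, MUC4, MUC13, AGR2 and WFDC2. MUC5AC, MUC5B, MUC20, TFF1 and TFF3 had no entry. The 250 bases before the start were searched on both strands for GGGCGG (the GC box bound by the Sp and KLF family), CCACCC (the CACCC box of the same family) and TTGCNNAA (letters of the CEBP site). No match of one motif shared bases with a match of another in these promoters. The MUC1 sequence is chr1:155192916-155193165 on the minus strand, that of WFDC2 is chr20:45469503-45469752 on the plus strand and that of AGR2 is chr7:16805000-16805249 on the minus strand. These positions are on GRCh38.p14 and cannot be set against the hg19 peak positions. Matches are in capitals. MUC1 and WFDC2 are shown for the peaks near their starts, and AGR2 as the only matched member with CEBP letters.
MUC1: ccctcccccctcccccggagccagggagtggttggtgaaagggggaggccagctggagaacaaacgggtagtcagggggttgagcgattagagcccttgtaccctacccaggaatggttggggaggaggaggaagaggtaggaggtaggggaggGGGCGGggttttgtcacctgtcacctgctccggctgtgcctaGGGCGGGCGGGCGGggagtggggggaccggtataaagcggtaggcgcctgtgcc
WFDC2: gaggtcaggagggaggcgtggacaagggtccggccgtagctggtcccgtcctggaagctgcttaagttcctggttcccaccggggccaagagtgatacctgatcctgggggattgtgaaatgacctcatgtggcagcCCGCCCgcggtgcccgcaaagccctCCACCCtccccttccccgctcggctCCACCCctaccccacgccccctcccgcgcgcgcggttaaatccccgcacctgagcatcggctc
AGR2: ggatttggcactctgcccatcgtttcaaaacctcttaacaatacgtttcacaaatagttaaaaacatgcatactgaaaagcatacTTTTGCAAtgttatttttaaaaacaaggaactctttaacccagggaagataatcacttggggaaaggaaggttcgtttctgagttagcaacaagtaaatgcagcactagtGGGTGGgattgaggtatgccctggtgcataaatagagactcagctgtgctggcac

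The MUC1 promoter held 4 GC boxes, the first at 96 bases before the start and 3 that overlap each other at 54, 50 and 46 bases. WFDC2 had 1 GC box at 113 bases and CACCC boxes at 88 and 63 bases before the start. AGR2 had no GC box, 1 CACCC box at 55 bases and the CEBP letters at 165 bases. MUC4, not printed, had 1 GC box and 3 CACCC boxes, and MUC13 had none of the 3 motifs. In all, 3 of the 5 promoters held a GC box, 3 a CACCC box and 1 the CEBP letters. Over all 35116 RefSeq promoter entries of the same length these shares were 42.6%, 31.3% and 9.05%. The G and C content was 66.0% for MUC1, 67.2% for WFDC2, 60.4% for MUC4, 41.6% for MUC13 and 40.4% for AGR2, against a median of 58.0% over all entries.

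The peaks were spread unevenly over the genes. Calu-3 KLF5 had 10 of its 1510 peaks at these loci, 9 of them at the gel-forming mucins MUC5AC and MUC5B and 1 at MUC1. The 16HBE14o- KLF5 list, which is longer, had 3 of its 3262 peaks there, 1 each at MUC1, at MUC4 and MUC20, and at WFDC2. CEBPB had 35 of its 69386 peaks and reached all 7 loci. MUC1 was the only locus with KLF5 in both lines. At 3 loci, holding the 4 genes MUC13, AGR2, TFF1 and TFF3, neither KLF5 list had a peak. Windows of 100 kb laid over the whole genome held a Calu-3 KLF5 peak in 3.95% of cases, a 16HBE14o- KLF5 peak in 7.26% and a CEBPB peak in 75.1%. The 7 windows used here were longer, at 105 to 234 kb. Genome windows of those lengths held a Calu-3 KLF5 peak in 4.12% to 8.25% of cases. For 16HBE14o- KLF5 the range was 7.57% to 14.2%, and for CEBPB it was 76.2% to 87.3%.

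**Figure D1:**
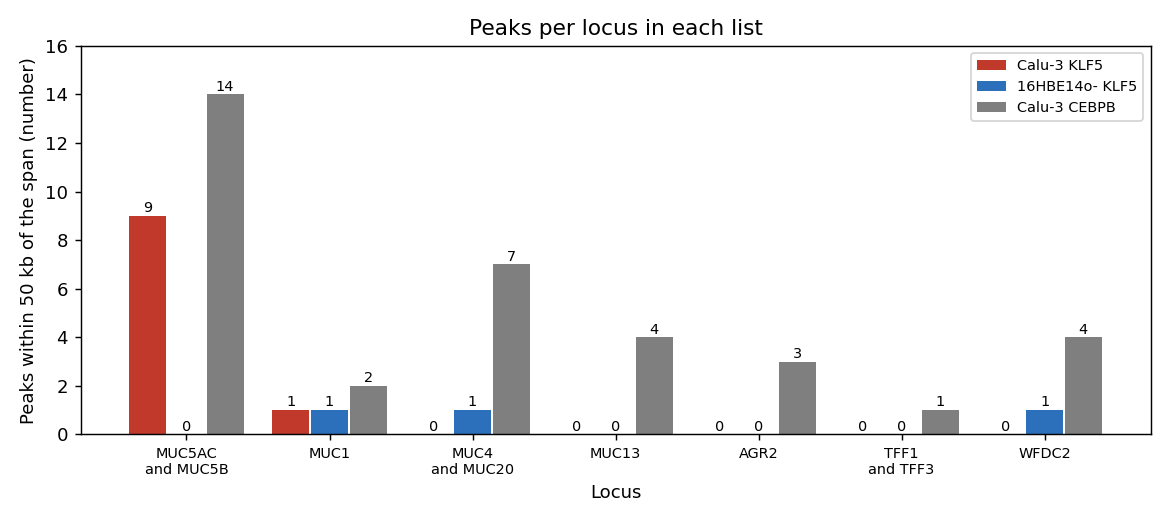
Number of peaks within 50 kb of each gene span (vertical axis) for the 7 loci (horizontal axis) in the 3 peak lists (bar colours, numbers above bars); each list pools both samples of its group, so there are no error bars. Calu-3 KLF5 has 9 of its 10 peaks at MUC5AC and MUC5B, where 16HBE14o- KLF5 has 0, and CEBPB has peaks at every locus.

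MUC5AC and MUC5B, the gel-forming mucin genes, lie next to each other on chromosome 11 between 1150 and 1284 kb. RefSeq places MUC2, another gel-forming mucin, before MUC5AC and TOLLIP, an adaptor of innate immune signalling, after MUC5B. Of the 9 Calu-3 KLF5 peaks, 7 had their midpoint inside the span. Which of these lie in an exon, an intron or between the genes was not determined, since no hg19 annotation was used here.

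Beginning at the MUC5AC edge, the first Calu-3 KLF5 peak was at chr11:1147842-1148121, with its midpoint 2.02 kb below the span, a signal of 51.4 and percentile 94.0. The second, at chr11:1151325-1151604, had its summit 1.47 kb inside the span, with a signal of 28.7 and percentile 56.5. These peaks lie on either side of the edge at which the MUC5AC span begins. The next KLF5 peak was 73.7 kb farther along the chromosome, with no peak of any list in between. How much of that stretch of hg19 reads can map to was not determined, so it is not read as an absence of binding.

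The KLF5 peak beyond that stretch opened a group of 6 peaks whose summits fell within 33.5 kb. The first of the group, at chr11:1225055-1225334, was the strongest member in the Calu-3 KLF5 list, with a signal of 53.5 and percentile 94.8. It was followed by chr11:1241071-1241350 (signal 27.5, percentile 51.3) and chr11:1244048-1244327 (signal 33.7, percentile 73.2). The group is thus made of strong and middling peaks side by side. Then came chr11:1245698-1245977 at percentile 54.8, chr11:1254976-1255255 at 91.7 and chr11:1258516-1258795 at 93.6. The last 2 had signals of 47.8 and 50.3 and lay 28.9 and 25.3 kb before the upper edge, on the MUC5B side of the span. In the whole Calu-3 KLF5 list, 5 separate places held 6 peaks within that distance, this one included. The others were on chromosomes 3, 7, 8 and 10.

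The ninth KLF5 peak, at chr11:1320402-1320681, was 36.5 kb above the span on the side of TOLLIP, with a signal of 28.1 and percentile 53.8. In all, 4 of the 9 peaks at this locus were above percentile 90, and all 9 were above 50. The authors' score was at its maximum of 1000 for 8 of the 10 Calu-3 KLF5 members, a value that 46.0% of the whole list had. All 10 had q-values of 0.05 or less, from 0.000751 to 0.00355, as did 86.6% of the whole list, so this count does not set them apart. The KLF5 q-values given here and below were read from the place of the q-value column in the file type, which nothing else in the sources names. Each was 280 bp wide, as were 99.3% of the list, so the widths say nothing of the sites.

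The 16HBE14o- KLF5 list had no peak within 50 kb of MUC5AC and MUC5B. Its nearest peak, at chr11:738024-738367, was 412 kb below the span. Within 1 Mb of the span Calu-3 KLF5 had 15 peaks and 16HBE14o- KLF5 had 3. Windows of 234 kb, the length used for this locus, were laid end to end over the genome after these values had been seen. Of 12819 such windows, 6 (0.0468%) held 9 or more Calu-3 KLF5 peaks, and 8.25% held any. All 6 also held a 16HBE14o- KLF5 peak, so none of them was this locus, whose peaks are divided by the fixed window edges. The share is thus a background and not a rank of this locus. Windows with 7 or more Calu-3 KLF5 peaks numbered 9, of which 2 had no 16HBE14o- peak. Among those 2 is the fixed window that holds most of the peaks of this locus, so they are not a background apart from it. The rabbit antibody was used in Calu-3 alone, and its part in this contrast cannot be told apart from that of the cell line.

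CEBPB had 14 peaks at the MUC5AC and MUC5B locus, against a median of 5 in windows of that length, and 4.41% of the windows held as many. The 3 strongest were the 3 that overlapped a KLF5 peak. The CEBPB peak at chr11:1225191-1225436 had a signal of 12.9 and percentile 98.5, and its summit was 118 bp from that of the strongest KLF5 peak of the locus, with 144 bp shared. At chr11:1320400-1320658 the CEBPB peak had a signal of 10.9 and percentile 97.7, with its summit 18 bp from the KLF5 summit and 257 bp shared. The remaining one, at chr11:1241143-1241370, had a signal of 6.001 and percentile 91.8, with 83 bp between summits and 208 bp shared. At the last 2 of these sites KLF5 was near the middle of its own list, at percentiles 53.8 and 51.3, while CEBPB was in the top 10% of its list.

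The other 6 KLF5 peaks of the locus had no CEBPB peak over them. Their nearest CEBPB summits were between 1.39 and 6.05 kb away. At the MUC5AC edge, CEBPB had a group of 3 peaks, at chr11:1144964-1145187 (percentile 86.5), chr11:1145950-1146135 (percentile 10.2) and chr11:1146518-1146662 (percentile 55.6). All 3 lay below the first KLF5 peak, the nearest summit being 1.39 kb from it. Both factors were thus listed within a few kb of this edge, but not at the same site. Of the 14 CEBPB peaks at the locus, 6 had a q-value of 0.05 or less, and the percentiles ran from 1.34 to 98.5 with a median of 44.4.

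**Figure D2:**
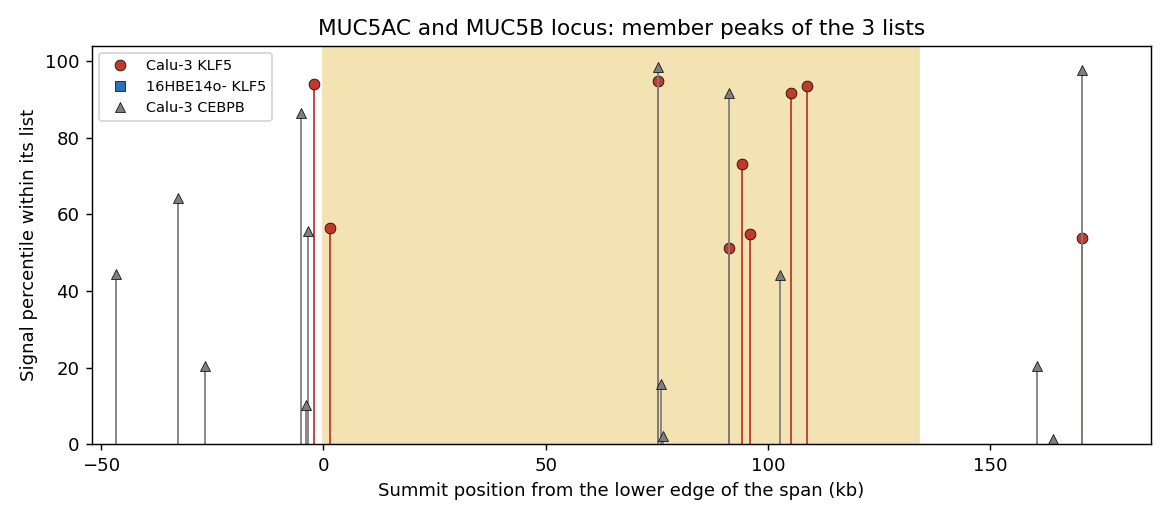
Summit positions of all member peaks at MUC5AC and MUC5B, in kb from the lower edge of the span (horizontal axis; the shaded band is the span), against the signal percentile within each list (vertical axis); no 16HBE14o- KLF5 peak is present. The 3 highest CEBPB peaks (triangles) coincide with KLF5 peaks (circles), at percentiles 98.5, 91.8 and 97.7 from left to right.

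MUC1, a membrane mucin expressed on most glandular epithelia, was the locus where both lines had KLF5. In Calu-3 the peak was at chr1:155163096-155163375, with a signal of 39.0 and percentile 82.7. In 16HBE14o- it was at chr1:155163031-155163374, with a signal of 53.0 and percentile 92.8. The summits were 33 bp apart, and 279 bp were shared. Both midpoints were just above the MUC1 span as rounded to the kb, by 235 bp in Calu-3 and by 202 bp in 16HBE14o-. Such offsets are within the rounding, so on which side of the true edge the midpoints lie is not known. RefSeq lists MUC1 on the minus strand, so the gene starts at the upper edge. THBS3, a thrombospondin gene, is the next gene beyond. Both peaks had the maximum score of 1000, and their q-values were 0.000751 and 0.00412.

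CEBPB was absent from this MUC1 site. The nearest CEBPB summit was 11.7 kb away, at chr1:155151463-155151600, below the span, and that peak was weak, at percentile 28.9 with a q-value of 0.101. The other CEBPB peak of the locus, at chr1:155211023-155211166, was 48.1 kb above the span and at percentile 71.9. The number of CEBPB peaks, 2, equalled the median of windows of that length. The GC boxes of the printed MUC1 promoter lie within 96 bases of the start, but whether the KLF5 peaks cover them was not determined across builds.

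WFDC2, on chromosome 20 between 44098 and 44111 kb, had the strongest CEBPB peak outside the gel-forming mucins. That peak, at chr20:44098145-44098491, had a signal of 7.10, percentile 94.0 and a q-value of 1.6e-18. Its summit was 253 bp inside the lower edge of the span as rounded to the kb. That offset is within the rounding, so the side of the true edge on which the summit lies is not known. RefSeq lists WFDC2 on the plus strand, so the gene starts at the lower edge. The printed WFDC2 promoter has no match to TTGCNNAA in its 250 bases. Other forms of the CEBP site were not searched, and the promoter was not placed against this peak. The next CEBPB peaks in rank were at chr20:44139176-44139354 (percentile 74.2) and chr20:44081745-44081876 (percentile 32.0).

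No KLF5 peak overlapped CEBPB at WFDC2. The 16HBE14o- KLF5 peak of the locus, at chr20:44073309-44073652, lay 24.5 kb below the span, on the side where RefSeq lists PIGT, with a signal of 34.1 and percentile 66.7. Its nearest CEBPB summit was 8.30 kb away. In Calu-3 the nearest KLF5 peak was 124 kb below the span at chr20:43974295-43974574, a strong peak at percentile 94.2 but outside the window. Within 1 Mb of WFDC2, 16HBE14o- KLF5 had 26 peaks and Calu-3 KLF5 had 7. At that distance the listed KLF5 peaks around WFDC2 were thus more numerous in 16HBE14o-. Those around MUC5AC and MUC5B were more numerous in Calu-3. Elsewhere the counts in Calu-3 and 16HBE14o- were 5 and 6 at MUC1, 2 and 5 at MUC4 and MUC20, and 1 and 1 at MUC13. They were 5 and 0 at AGR2 and 0 and 16 at TFF1 and TFF3. No share of genome windows of that width was computed, and these differences were not tested. The 16HBE14o- list is also the longer, with 3262 peaks against 1510. Within 50 kb of WFDC2 the counts were 1 in 16HBE14o- and 0 in Calu-3.

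MUC4, a large membrane mucin of the airway surface, and MUC20, a smaller membrane mucin, share a locus on chromosome 3 between 195447 and 195540 kb. The only KLF5 peak there was in 16HBE14o-, at chr3:195426939-195427282, 19.9 kb below the span on the side of MUC20. It was one of the weakest of its list, with a signal of 13.5, percentile 5.79, a score of 582 and a q-value of 0.681. A CEBPB peak at chr3:195426862-195427072 overlapped it by 134 bp with 205 bp between summits, and this peak was at percentile 0.183 with a q-value of 0.613. Both are close to the bottom of their lists, so this is the least secure overlap among the members.

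The stronger CEBPB peaks at MUC4 and MUC20 were at chr3:195481075-195481283 inside the span (percentile 74.5), chr3:195442931-195443131 at 3.97 kb below it (percentile 70.5) and chr3:195556831-195556986 at 16.9 kb above it (percentile 63.8). The locus had 7 CEBPB peaks, against a median of 4 in windows of its length, and 25.9% of those windows held as many. Calu-3 KLF5 had none, and its nearest peak was 693 kb below the span at chr3:194754254-194754533. RefSeq lists MUC4 on the minus strand, so that the gene starts at the upper edge, and no KLF5 peak of either line lay within 50 kb of that edge.

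MUC13, a membrane mucin better known from the gut, had no KLF5 peak in either line, the nearest being 321 kb away in Calu-3 and 194 kb away in 16HBE14o-. It had 4 CEBPB peaks, of which 3 were inside the span of 30 kb. The strongest was at chr3:124605380-124605512, 18.6 kb below the span, at percentile 80.0. Next were chr3:124640710-124640918 at percentile 74.7 and chr3:124634381-124634509 at percentile 57.8.

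AGR2, the mucin-folding protein, also had CEBPB without KLF5. Its 3 CEBPB peaks were of similar rank, at percentiles 87.9, 81.6 and 81.6. The highest, at chr7:16852887-16853097, was 7.99 kb above the span, which is the side of the gene's start, with a signal of 4.95 and a q-value of 9.2e-11. The others were at chr7:16886930-16887285, 42.1 kb above, and at chr7:16781529-16781710, 49.4 kb below. RefSeq lists AGR3, a close relative of AGR2, as the next gene above. The nearest Calu-3 KLF5 peak was 123 kb away at chr7:16707711-16707990 (percentile 49.8), and the nearest 16HBE14o- KLF5 peak was 3548 kb away.

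TFF1 and TFF3, the trefoil peptide genes, flank TFF2 on chromosome 21 and had 1 CEBPB peak and no KLF5 peak. The CEBPB peak was at chr21:43780921-43781117, inside the span 5.99 kb before the upper edge, on the side of TFF1. It had a signal of 3.97, percentile 78.7 and a q-value of 0.00761. Windows of that length had a median of 3 CEBPB peaks, and 82.5% of them held at least 1. The nearest KLF5 peaks were 1149.8 kb away in Calu-3 and 357 kb away in 16HBE14o-, although 16HBE14o- KLF5 had 16 peaks within 1 Mb and Calu-3 KLF5 had none.

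**Figure D3:**
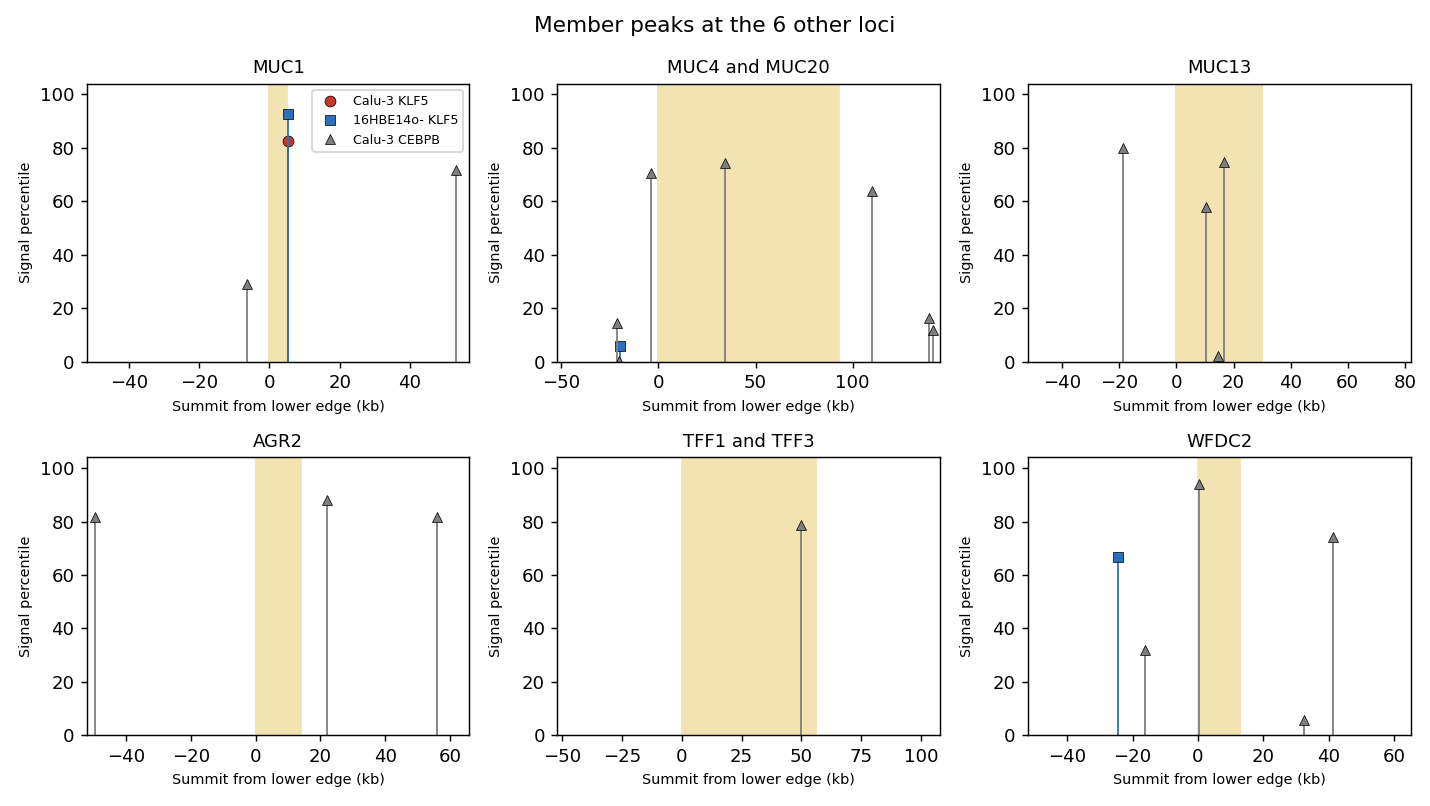
Summit positions of the member peaks at the 6 other loci, in kb from the lower edge of each span (horizontal axes; shaded bands are the spans), against the signal percentile within each list (vertical axes). KLF5 of both lines meets at the upper edge of MUC1, at percentiles 82.7 and 92.8, and the CEBPB peak at percentile 94.0 sits at the lower edge of WFDC2.

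**Figure D4:**
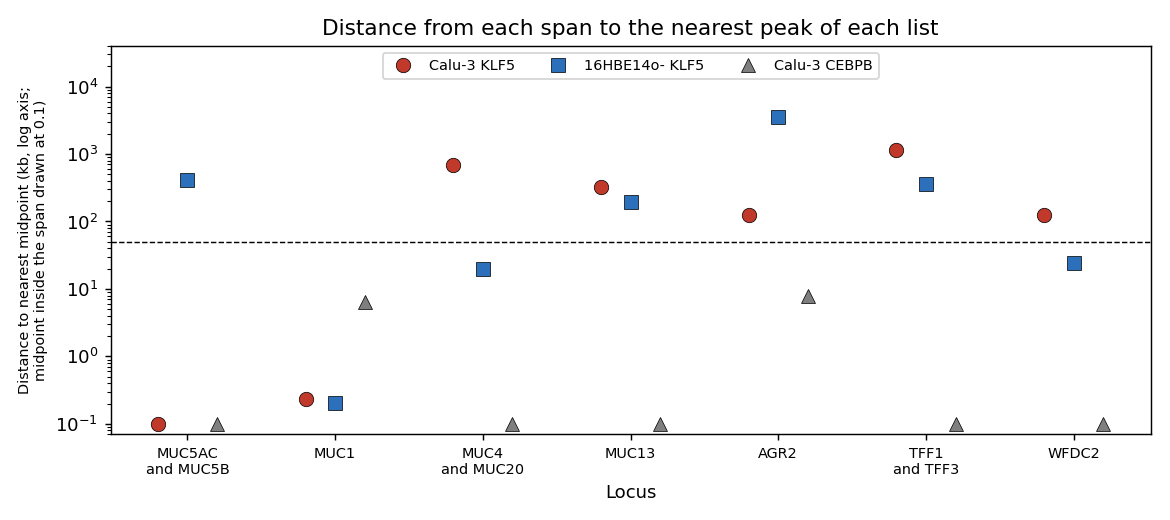
Distance in kb from each gene span to the nearest peak midpoint of each list (vertical log axis; midpoints inside a span are drawn at 0.1; the dashed line is the 50 kb limit). KLF5 is inside the limit in both lines only at MUC1, while every locus has a CEBPB peak within 7.99 kb.

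Taking the loci as a group, CEBPB overlapped 3 of the 10 Calu-3 KLF5 members (30.0%, exact 95% interval 6.67 to 65.2), and 43.7% of the whole Calu-3 KLF5 list had such an overlap. A 16HBE14o- KLF5 peak overlapped 1 of the 10 (10.0%, 0.253 to 44.5), the peak at MUC1, against 23.6% of the list. Of the 3 16HBE14o- KLF5 members, 1 had a CEBPB peak, the weak one below MUC20 (33.3%, 0.840 to 90.6, list 22.4%), and 1 had a Calu-3 KLF5 peak (33.3%, list 11.3%). Each interval in this paragraph holds the share of its list, so these shares are not read as a departure from it. No test was made, and 9 of the 10 Calu-3 KLF5 members come from 1 locus. Intervals cover counting error only, and neighbouring peaks of 1 locus are not independent.

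Of the 35 CEBPB members, 3 overlapped Calu-3 KLF5 (8.57%, 1.80 to 23.1), against 0.938% of all CEBPB peaks, which is below the interval. This was not tested, and all 3 were at the MUC5AC and MUC5B locus. The count therefore describes that locus and not the other 6. One CEBPB member overlapped 16HBE14o- KLF5 (2.86%, 0.0723 to 14.9, list 1.03%). CEBPB q-values of 0.05 or less were found for 21 of the 35 (60.0%, 42.1 to 76.1), against 46.3% of the list. Only 4 CEBPB members were above percentile 90, and 3 of those 4 lay over a Calu-3 KLF5 peak, the exception being the peak at WFDC2. None of the other 31 did. In the whole list, 651 of the 69386 CEBPB peaks had a Calu-3 KLF5 peak, and 426 of these 651 were among the 6940 above percentile 90. Such overlaps were thus rare among the weaker peaks of the whole list too. The lack of any among the 31 is therefore not read as a trait of these loci.

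The Calu-3 KLF5 members ranked in the upper part of their list, from percentile 51.3 to 94.8 with a median of 78.0. The 3 with CEBPB were at 94.8, 53.8 and 51.3, and the 7 without ran from 54.8 to 94.0 with a median of 82.7, so both kinds overlapped in rank. The 3 16HBE14o- members were spread from 5.79 to 92.8. CEBPB members ran from 0.183 to 98.5 with a median of 57.8.

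At the limit of 50 kb, the outermost Calu-3 KLF5 member was the peak at 36.5 kb above MUC5AC and MUC5B, and the first beyond the limit at any locus was 123 kb from AGR2. For 16HBE14o- KLF5 the outermost member was at 24.5 kb from WFDC2. The first beyond the limit were at 57.5 kb from MUC1 (chr1:155100335-155100678, percentile 4.78) and 62.7 kb from WFDC2 (chr20:44035093-44035436, percentile 33.4). For CEBPB the outermost was at 49.4 kb from AGR2 and the first beyond at 51.1 kb from MUC13, a weak peak at percentile 2.11.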

How the data were processed

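ChIP-seq peaks of 6 samples in 3 groups were analysed from 3 deposited lists. The submitters' design text says that both samples of a group went into its list. Per the file headers, the lists are on hg19 and hold irreproducible discovery rate peaks. The deposited signal, score and −log10 q-values are the authors' own, read by the column order of the narrowPeak type that the file headers name. The CEBPB list also has deposited −log10 p-values, whereas that column of the KLF5 lists holds a placeholder and no p-value. That the next KLF5 column holds q-values rests on the column order alone. The normalization, aligner, peak caller and control are not given in the sources used here.

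Starts were made 1-based. Members were the peaks whose midpoint was within 50 kb of a span. Overlap meant at least 1 shared bp. Shares carry exact (Clopper-Pearson) 95% intervals. No test was made, since each group has 1 list. All KLF5 members, the 3 CEBPB members of highest percentile at each locus and all CEBPB members over KLF5 are named, and 3 more CEBPB peaks at MUC5AC and the nearest peaks outside a window were named after their values were seen. The members, lists and this rule were chosen with earlier results of these data known. Alternatives varied the margin, overlap rule, filters, ranking and window length. Interval code was tested on simulated data. Python 3.11.15, numpy 2.4.6, pandas 2.3.3, scipy 1.17.1 and matplotlib 3.10.9 were used.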

Additional observations from a re-analysis of the deposited data

How the results depend on the processing

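No paired analysis was possible because each group has 1 list made from both of its samples, and for the same reason no sample could be left out. Of 77 recomputed values, 55 moved by no more than 1.5 times and 22 by more. The Calu-3 KLF5 count stayed between 7 and 10 at all loci and between 7 and 9 at MUC5AC and MUC5B. There 16HBE14o- KLF5 had 0 in every alternative run, but none could have changed this, as its nearest peak was 412 kb away. Nor could the q-value and signal filters lower the Calu-3 KLF5 count, since all 10 members already passed both. The 55 include such values that could not move, so they are not a measure of stability. With no margin around the spans, 16HBE14o- KLF5 had 0 peaks at all loci. CEBPB then had 11 peaks, with 5 at MUC5AC and MUC5B. At that setting 0 of the 7 Calu-3 KLF5 peaks overlapped 16HBE14o- KLF5, since the MUC1 midpoints lie just outside the span as rounded to the kb. With a margin of 25 kb CEBPB had 23 and 8 peaks, and with 100 kb it had 62 at all loci and 16HBE14o- KLF5 had 7, of which 4 overlapped CEBPB. Limited to q-values of 0.05 or less, CEBPB had 21 peaks in all and 6 at MUC5AC and MUC5B, and among peaks above the median signal of their list it had 19 and 6. The single overlap of 16HBE14o- KLF5 with CEBPB, below MUC20, fell to 0 under both filters and when summits had to lie within 100 bp. The share of windows with a peak followed window length. For Calu-3 KLF5 it was 2.10% at 50 kb, 7.27% at 200 kb and 8.25% at 234 kb, the last length being chosen after the data had been seen, and for 16HBE14o- KLF5 it was 4.03%, 12.7% and 14.2%. The lists hold no read counts, so how depth limits a locus with no listed peak is unknown.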
